A study of Mus musculus with 12 samples.

Results

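The regions described here are the control regions of 6 imprinted clusters whose DNA is methylated on the maternally inherited chromosome: Kcnq1ot1, Airn-Igf2r, Snrpn, Nespas-Gnas, Peg3 and Grb10, which carry 8 named genes. They were chosen as fixed windows of 25, 30 or 60 kb on the mouse genome build mm9, and a peak was a member when it overlapped a window by at least 1 bp. The members were 21 of the 13716 peaks in 4 lists, made up of 4 of 1485 peaks for ZFP57 and 4 of 10295 for KAP1 in A3 cells, and 7 of 602 for ZFP57 and 6 of 1334 for KAP1 in E14 cells. The study profiled ZFP57, KAP1 and H3K9me3 with input controls by chromatin immunoprecipitation and sequencing (ChIP-seq), in which an antibody retrieves the DNA fragments bound by a protein, in wild-type and Zfp57-/- mouse embryonic stem cells. A3 is a wild-type line of strain 129X1/SvJ and E14 a wild-type line of strain 129P2/OlaHsd, and both were grown without feeder cells on gelatin in serum with leukemia inhibitory factor. Each line gave 1 library per protein, so no value here has a replicate error and no test between the lines or proteins was possible. The other 8 libraries, including all those of the Zfp57-/- cells, were not analysed here.

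ZFP57 binds DNA through zinc fingers, which recognise the short sequence TGCCGC when its CpG is methylated, and its KRAB domain recruits the corepressor KAP1, also called TRIM28. At imprinted control regions the pair is known to hold DNA methylation and H3K9me3 on 1 parental chromosome after fertilisation, when most of the genome loses its inherited methylation. Maternally methylated control regions typically contain a promoter that is active on the unmethylated paternal chromosome. The peak lists do not separate the parental chromosomes, and they cannot show whether the cells were embryonic stem cells by marker expression.

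In E14 both proteins had a peak at all 6 control regions, beside 0.214% of genome tiles of the same scale, and in A3 both had a peak at 4, beside 0.217% of tiles. The tiles divide each chromosome into stretches of 32.5 kb, the mean window width, up to its last called peak. The 4 regions called in all lists were Kcnq1ot1, Snrpn, Nespas-Gnas and Peg3, and all lists had a peak in 42 of the 81216 tiles, or 0.0517% (95% exact Clopper-Pearson interval 0.0373 to 0.0699%, covering counting error alone). Airn-Igf2r and Grb10 had peaks of both proteins in E14 and of neither in A3, which held for 0.069% of tiles. Within a line ZFP57 and KAP1 were called together at every region with any peak, with the midpoints of overlapping peaks at most 75 bp apart.

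List by list, A3 ZFP57 had a peak in 1.79% of tiles and A3 KAP1 in 10.9%, beside 4 of 6 windows for each. E14 ZFP57 had a peak in 0.736% of tiles and E14 KAP1 in 1.6%, beside 6 of 6 windows for each. The tiles include parts of the genome to which reads cannot be placed and the tiles of the windows themselves. The windows were chosen with earlier results of these lists known, so the counts describe the regions and were not tested.

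**Figure D1:**
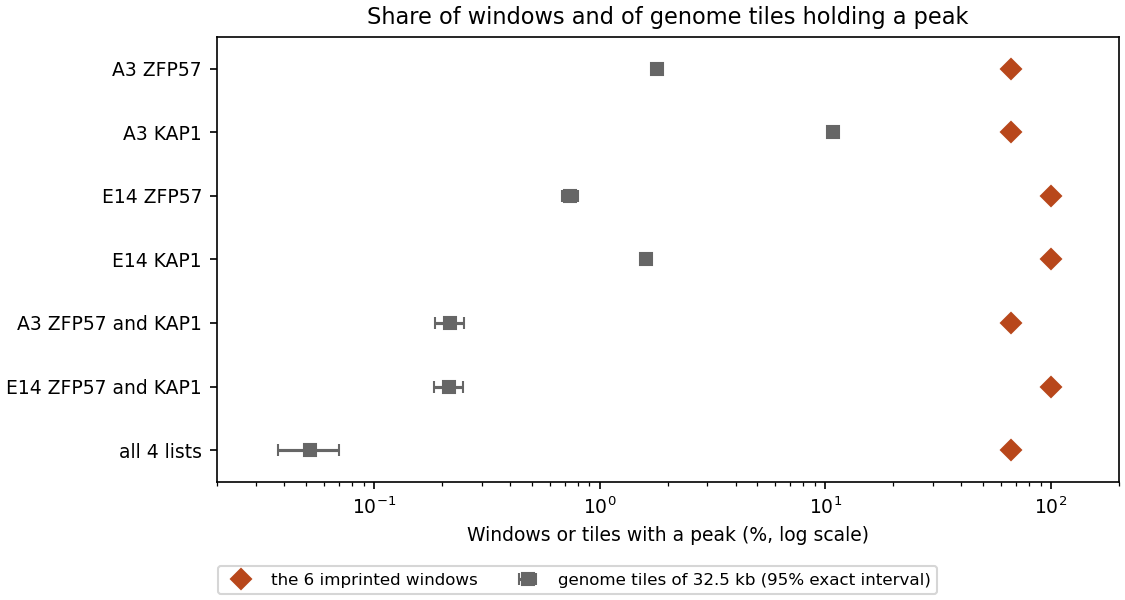
Percentage of the 6 imprinted windows (diamonds) and of 81216 genome tiles of 32.5 kb (squares, bars show the 95% exact interval) that hold a peak, on a log scale, for each list and for combinations of lists. The windows stand at 66.7% or 100%, and the tiles lie between 0.0517% for all lists and 10.9% for A3 KAP1.

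The mm9 sequence under the peaks was not used here, so promoter sequences of the member genes are shown from RefSeq (build GRCm38.p6, 250 bases before to 50 after each start site). The table held 14 start sites for 7 of the 8 genes, and Nespas had no entry. These windows were not placed relative to the mm9 peaks. Those of Gnas at chr2:174327499-174327798 and chr2:174327518-174327817 shared most of their bases and were counted separately. The hexamer TGCCGC, searched on both strands, where it does not overlap itself, was present in 2 of the 14 promoter windows (14.3%), against 11.6% of all 32851 promoter windows in the table. The 2 with a match were a Snrpn and a Grb10 start site, and each had 1 match, in its reverse complement GCGGCA. They are shown with the hexamer in capitals, followed by the promoter windows of Kcnq1ot1 and Airn, the long noncoding RNAs of a region called in all lists and of a region called in E14, which contained no match.
Snrpn, chr7:60005150-60005449, minus strand: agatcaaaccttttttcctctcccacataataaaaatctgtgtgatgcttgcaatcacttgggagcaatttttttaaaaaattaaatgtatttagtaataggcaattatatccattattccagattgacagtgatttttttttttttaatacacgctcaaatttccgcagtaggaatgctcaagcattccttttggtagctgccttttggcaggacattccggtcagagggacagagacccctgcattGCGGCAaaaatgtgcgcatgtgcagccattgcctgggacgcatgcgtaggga
Grb10, chr11:12037371-12037670, minus strand: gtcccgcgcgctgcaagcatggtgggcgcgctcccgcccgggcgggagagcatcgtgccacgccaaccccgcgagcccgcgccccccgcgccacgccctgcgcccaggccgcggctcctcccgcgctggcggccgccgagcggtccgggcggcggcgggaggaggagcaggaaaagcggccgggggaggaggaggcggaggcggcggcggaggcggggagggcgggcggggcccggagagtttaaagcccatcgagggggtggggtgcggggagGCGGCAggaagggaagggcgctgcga
Kcnq1ot1, chr7:143296498-143296797, minus strand: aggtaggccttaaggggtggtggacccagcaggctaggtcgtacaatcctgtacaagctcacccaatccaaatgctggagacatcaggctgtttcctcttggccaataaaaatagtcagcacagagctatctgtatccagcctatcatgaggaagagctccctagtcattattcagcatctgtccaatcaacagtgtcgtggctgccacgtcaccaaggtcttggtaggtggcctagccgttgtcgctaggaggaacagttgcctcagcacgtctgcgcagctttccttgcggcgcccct
Airn, chr17:12741061-12741360, plus strand: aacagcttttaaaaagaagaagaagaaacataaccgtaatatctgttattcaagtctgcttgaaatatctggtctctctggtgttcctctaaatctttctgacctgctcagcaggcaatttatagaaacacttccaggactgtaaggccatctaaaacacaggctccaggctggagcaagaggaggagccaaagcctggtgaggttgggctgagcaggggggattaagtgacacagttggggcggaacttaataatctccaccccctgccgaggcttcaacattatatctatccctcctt
These promoters differed widely in CpG, the dinucleotide at which methylation is carried. The Grb10 window held 45 CpGs, a number reached by 1.93% of all promoter windows. The Kcnq1ot1 window held 9, the Snrpn window 7 and the Airn window 3, where the median of all windows was 7. Start sites not shown differed from these. The other Grb10 window held 9 CpGs and the other Snrpn windows 2, 3 and 4. Igf2r had 34, Peg3 13 and the Gnas windows 16 to 40. The median over the 14 windows of the member genes was 11.

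Among the control regions that contain the promoter of a noncoding RNA, Kcnq1ot1 and Nespas-Gnas were called in all lists and Airn-Igf2r in E14. Kcnq1ot1 is a paternally expressed RNA, transcribed inside Kcnq1, that is known to silence neighbouring genes such as Cdkn1c. The A3 KAP1, E14 ZFP57 and E14 KAP1 peaks had the same edges, chr7:150481351-150481950 in mm9, a width of 600 bp and a midpoint at 150481650.5. The A3 ZFP57 peak started at the same base and ended at 150481800, 1 step of the lists' 150 bp grid earlier, with a width of 450 bp. It was the narrowest of the 4 A3 ZFP57 members, and 46.0% of the A3 ZFP57 list was at least as wide.

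Nespas-Gnas had the only window with more than 1 peak in a list. Gnas encodes the stimulatory G protein alpha subunit and has several alternative promoters, and Nespas is the antisense transcript of the cluster. A3 ZFP57, E14 ZFP57 and E14 KAP1 each had a peak with the same edges, chr2:174121201-174121950 in mm9, 750 bp wide, with the midpoint at 174121575.5. The A3 KAP1 peak reached 150 bp further on both sides, chr2:174121051-174122100, and its width was 1050 bp. The midpoints therefore coincided in all lists. E14 ZFP57 had a further peak of 450 bp at chr2:174125101-174125550, whose midpoint lay 3.75 kb from that of the first. No other list had a peak there, and the nearest E14 KAP1 peak was the one at the first site. It was the only one of the 21 members that overlapped no peak of another list.

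Airn is the paternally expressed antisense RNA whose promoter lies within Igf2r and which is known to silence Igf2r, the receptor that removes insulin-like growth factor 2. In E14 the ZFP57 peak lay at chr17:12934951-12935400 in mm9 with a width of 450 bp and a midpoint at 12935175.5. The KAP1 peak there, chr17:12934801-12935700, was 900 bp wide with its midpoint at 12935250.5. It was the widest E14 KAP1 member, reached in width by 3.82% of the E14 KAP1 list, while 57.5% of the E14 ZFP57 list was at least as wide as the ZFP57 peak. The KAP1 peak extended 150 bp beyond the ZFP57 peak on the lower side and 300 bp on the upper side. In A3 the nearest ZFP57 peak was 323 kb from the E14 ZFP57 peak, and the nearest A3 KAP1 peak 177 kb away.

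The paternally expressed protein-coding genes Snrpn and Peg3 were called in every list. Snrpn encodes a protein of the spliceosome, and its control region governs the cluster affected in Prader-Willi syndrome. The A3 peaks there were the widest members of their lists. A3 ZFP57 was called at chr7:67149001-67150200 in mm9, 1200 bp wide with the midpoint at 67149600.5, a width reached by 1.89% of its list. A3 KAP1 was called at chr7:67148851-67150200, 1350 bp wide with the midpoint at 67149525.5, a width reached by 2.13% of its list. The E14 peaks lay inside both A3 peaks. E14 ZFP57 covered chr7:67149301-67149900, which was 600 bp, and E14 KAP1 chr7:67149301-67150050, which was 750 bp. The ZFP57 midpoint was the same in both lines, and the E14 KAP1 midpoint, 67149675.5, lay 150 bp from that of A3, the largest offset among the members.

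Peg3 encodes a zinc finger protein and lies in a cluster with further zinc finger genes. The A3 ZFP57 and E14 KAP1 peaks had the same edges, chr7:6681751-6682500 in mm9, a width of 750 bp and a midpoint at 6682125.5. A3 KAP1 began 150 bp earlier, chr7:6681601-6682500, with a width of 900 bp. E14 ZFP57 ended 150 bp earlier, chr7:6681751-6682350, with a width of 600 bp. The midpoint of both these peaks was 6682050.5, at 75 bp from that of the other pair.

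Grb10 encodes an adaptor protein that restrains growth, and its imprinted expression differs between tissues, with paternal expression in neurons and maternal expression in most other tissues. E14 ZFP57 and E14 KAP1 had the same peak, chr11:11925901-11926500 in mm9, 600 bp wide with the midpoint at 11926200.5. A3 had no peak of either protein in the window. The nearest A3 ZFP57 peak was 1625 kb away. The nearest A3 KAP1 peak, chr11:11842501-11843100, was 82.8 kb from the E14 peak and 66.9 kb outside the window.

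**Figure D2:**
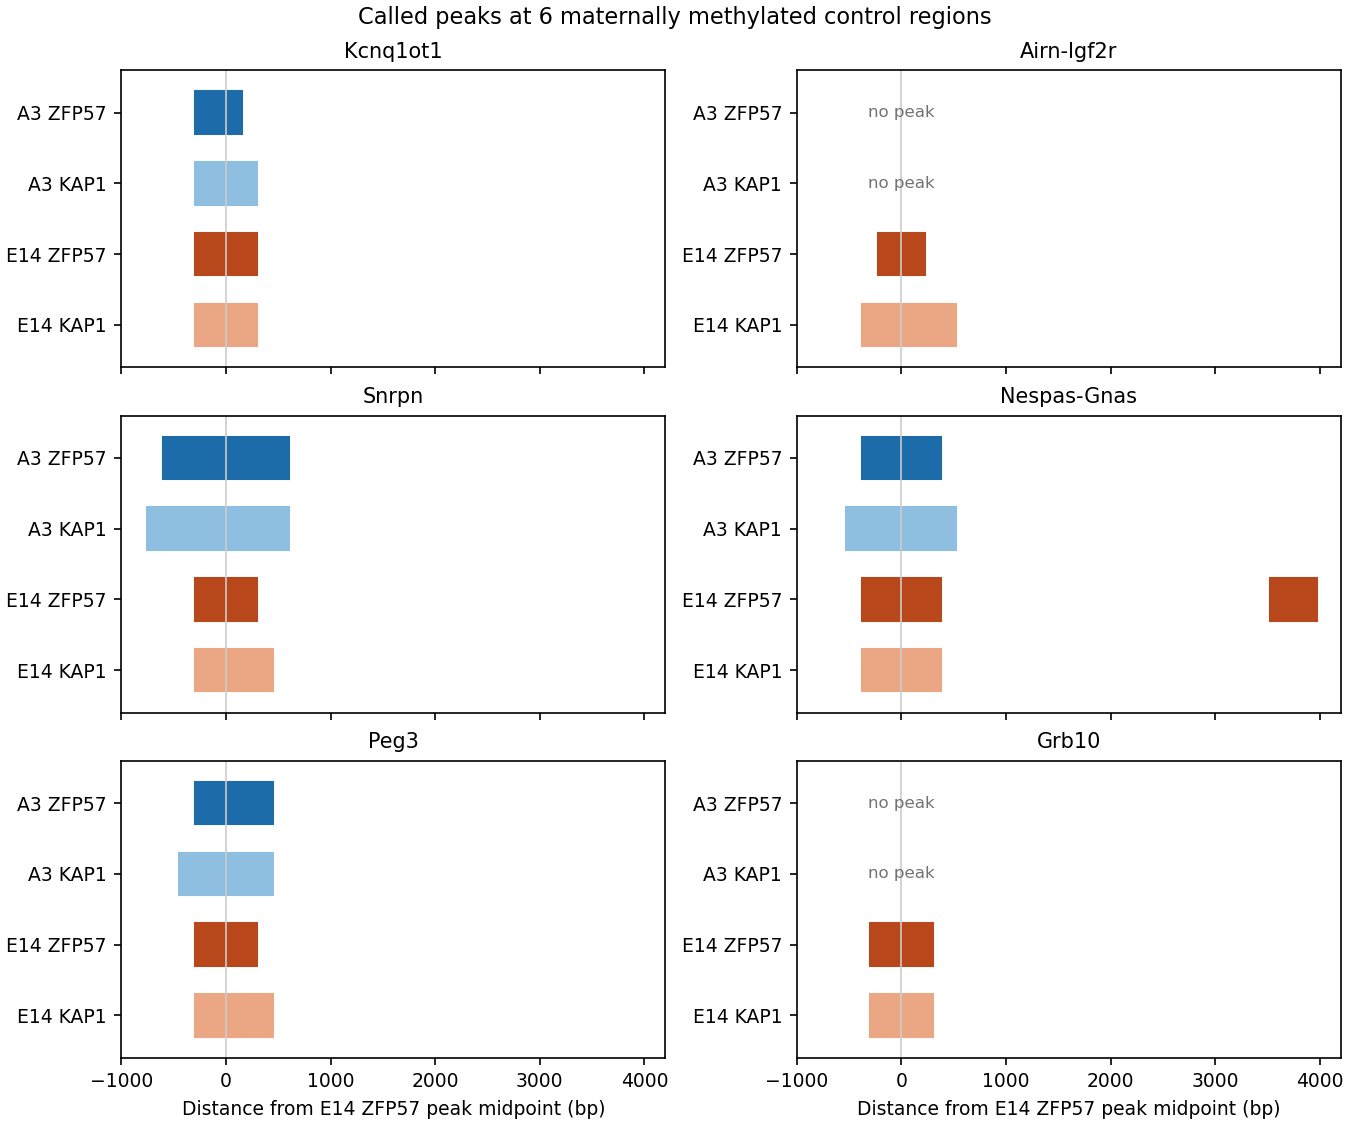
Extent of each called peak in the 4 lists at the 6 control regions, as distance in bp from the midpoint of the E14 ZFP57 peak (at Nespas-Gnas, of the first). Bars show first to last base on a 150 bp grid, Airn-Igf2r and Grb10 have no A3 peak, and the further E14 ZFP57 peak at Nespas-Gnas lies 3750 bp from the first.

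Within each line the ZFP57 peak lay wholly inside the KAP1 peak in all 10 pairs. In A3, 4 of 4 ZFP57 members overlapped a KAP1 peak, where 4.24% of the A3 ZFP57 list did (3.28 to 5.40%). In E14, 6 of 7 did, where 26.6% of the E14 ZFP57 list did (23.1 to 30.3%), and the exception was the further peak at Nespas-Gnas. Read from KAP1, all 4 A3 members overlapped a ZFP57 peak, beside 0.612% of the A3 KAP1 list, and all 6 E14 members did, beside 12% of the E14 KAP1 list. Lying wholly inside was common wherever the proteins met: it held for 85.7% of all A3 ZFP57 peaks that overlapped a KAP1 peak and for 76.2% of those in E14. A midpoint distance of at most 75 bp was likewise the rule, at 85.7% in A3 and 88.8% in E14.

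The KAP1 peak was the wider of the pair at all 4 regions in A3, by 150 bp at Kcnq1ot1, Snrpn and Peg3 and by 300 bp at Nespas-Gnas. Over the A3 list as a whole, 49.2% of the ZFP57 peaks with KAP1 (31 of 63) had a wider KAP1 peak. In E14 the KAP1 peak was wider at Airn-Igf2r, Snrpn and Peg3, 3 of 6 pairs, beside 26.9% of the E14 list. The pair had the same edges at Kcnq1ot1, Nespas-Gnas and Grb10, also 3 of 6, beside 51.2% of the list. In A3, 0 of 4 pairs had the same edges, beside 38.1% of the list. With 4 and 6 pairs and 1 library each, these differences from the lists were not tested.

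Between the lines, the 4 regions called in A3 were called at the same place in E14. All 4 A3 ZFP57 members overlapped an E14 ZFP57 peak, beside 3.77% of the A3 list, and 4 of the 7 E14 members overlapped an A3 ZFP57 peak, beside 9.3% of the E14 list. For KAP1 all 4 A3 members were shared, beside 5.96% of the list, and 4 of 6 E14 members, beside 46% of the list. The A3 KAP1 peak was wider than the E14 KAP1 peak at Snrpn, Nespas-Gnas and Peg3 and equal at Kcnq1ot1. The ZFP57 peaks had no common order, with A3 wider at Snrpn and Peg3, equal at Nespas-Gnas and narrower at Kcnq1ot1. The part common to all lists was 450 bp at Kcnq1ot1, 600 bp at Snrpn and Peg3 and 750 bp at Nespas-Gnas. Since each ZFP57 peak lay inside the KAP1 peak of its line, this part is that common to the ZFP57 peaks of both lines. It had the edges of the A3 ZFP57 peak at Kcnq1ot1 and of the E14 ZFP57 peak at Snrpn and Peg3. At Nespas-Gnas it had those of both ZFP57 peaks and of the E14 KAP1 peak.

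The pattern of Airn-Igf2r and Grb10 was frequent among E14 sites. Of the 160 E14 ZFP57 peaks with KAP1, 67 (41.9%, 34.1 to 49.9%) overlapped no A3 peak of either protein, so the 2 of 6 control-region sites (33.3%) were near that share. Of the same 160 peaks, 38 (23.8%, 17.4 to 31.1%) had both proteins in A3, beside 4 of 6 control-region sites. Whether the absence of a call in A3 at these loci reflects lower occupancy, library depth or the calling threshold was not tested, since the lists carry no score and no read count.

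Member peaks were wider than the minimum of their lists. The smallest width in every list was 300 bp, and 0 of the 21 members had it, whereas 54.2% of the A3 ZFP57 peaks outside the windows, 13.4% of A3 KAP1, 43.0% of E14 ZFP57 and 35.5% of E14 KAP1 did. The A3 ZFP57 members had a median width of 750 bp (450 to 1200 bp) against 300 bp outside the windows, and the A3 KAP1 members 975 bp (600 to 1350 bp) against 600 bp. In E14 the ZFP57 members had a median of 600 bp (450 to 750 bp) against 450 bp, and the KAP1 members 750 bp (600 to 900 bp) against 450 bp. Outside the windows, 28.6% of E14 ZFP57 peaks reached the member median, against 8.58% for A3 ZFP57, 6.21% for A3 KAP1 and 7.53% for E14 KAP1. Several members were of ordinary width, however: 55.3% of the A3 KAP1 list was at least as wide as the Kcnq1ot1 peak, and 25.6% of the E14 KAP1 list at least as wide as the Kcnq1ot1 and Grb10 peaks. For ZFP57, 46.0% of the A3 list was at least as wide as the Kcnq1ot1 peak. In E14, 57.5% of the ZFP57 list reached the Airn-Igf2r and further Nespas-Gnas peaks, both of 450 bp. Width carries no measure of signal.

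**Figure D3:**
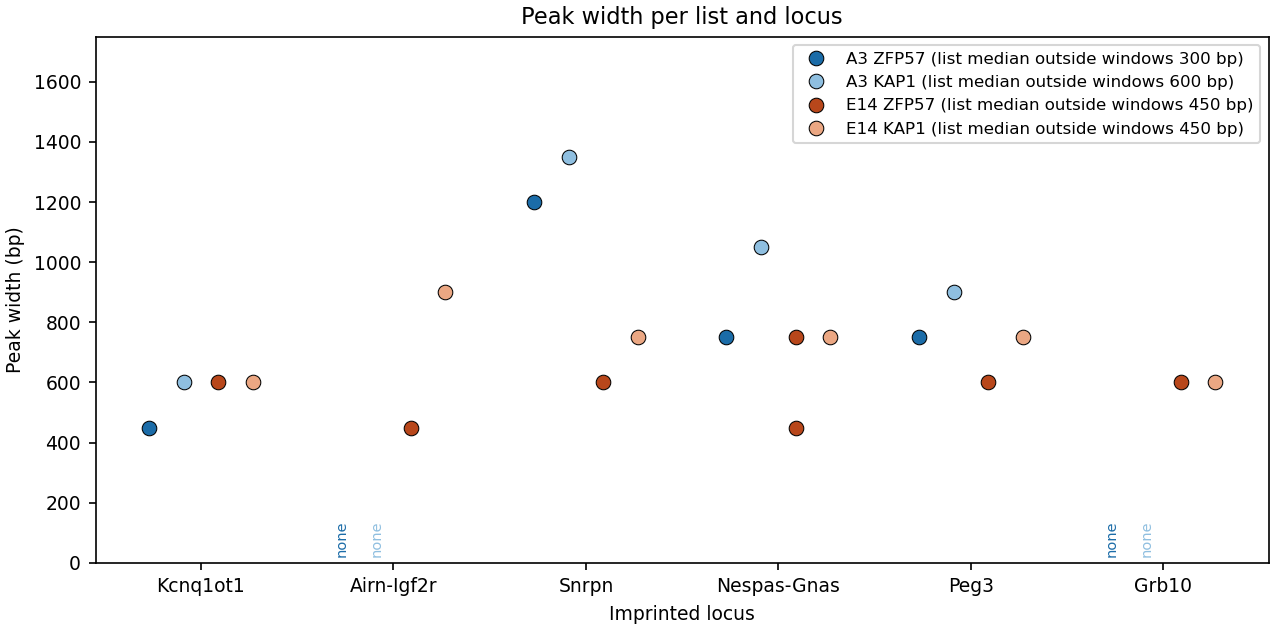
Width in bp of every member peak by locus, coloured by list, with the median width of the rest of each list in the legend. Snrpn has the widest A3 peaks (1200 and 1350 bp) and Airn-Igf2r the widest E14 KAP1 peak (900 bp), and no member is at the minimum of 300 bp.

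The E14 lists held no peak of either protein within 500 kb outside any of the 6 windows. Long gaps were usual in these lists: around windows of 32.5 kb centred on each peak, 73.1% of all E14 ZFP57 peaks and 49.2% of all E14 KAP1 peaks had no other peak of their list within 500 kb. For E14 ZFP57 the nearest peak outside was between 585 kb (Peg3) and 6645 kb (Nespas-Gnas) away, and for E14 KAP1 between 533 kb (Grb10) and 2932 kb (Airn-Igf2r). At Kcnq1ot1 the nearest E14 peaks of both proteins, 702 kb away, were those of the H19 control region. At Peg3 the nearest E14 peaks of both proteins had the same edges as each other, chr7:6084151-6084750. In A3 no ZFP57 peak lay within 500 kb outside the Kcnq1ot1 and Grb10 windows. The same held for A3 KAP1 outside the Snrpn window. The Grb10 window itself held no A3 peak. Around windows centred on a peak, 42.1% of all A3 ZFP57 peaks and 3.98% of all A3 KAP1 peaks had no other peak within 500 kb. Beside these shares stand the 4 windows with A3 peaks, where it held at Kcnq1ot1 for ZFP57 and at Snrpn for KAP1. For A3 KAP1 the nearest peak outside was 66.9 kb (Grb10) to 836 kb (Snrpn) away, with 0 to 8 peaks within 500 kb of a window. For A3 ZFP57 it was 87.4 kb at Snrpn, 105 kb at Peg3 and 14638 kb at Kcnq1ot1, and no A3 ZFP57 peak followed the Kcnq1ot1 window on chromosome 7. The median distance over the 6 windows was 2522 kb for E14 ZFP57, against 1054 kb over all peaks of that list, and 337 kb for A3 ZFP57, against 366 kb. For KAP1 it was 759 kb in E14, against 485 kb, and 182 kb in A3, against 52.8 kb. The A3 medians include Airn-Igf2r and Grb10, which held no A3 peak, whereas the list values start from peaks. At these loci the distances were 308 and 1611 kb for A3 ZFP57 and 162 and 66.9 kb for A3 KAP1. These distances describe 6 windows and were not tested.

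**Figure D4:**
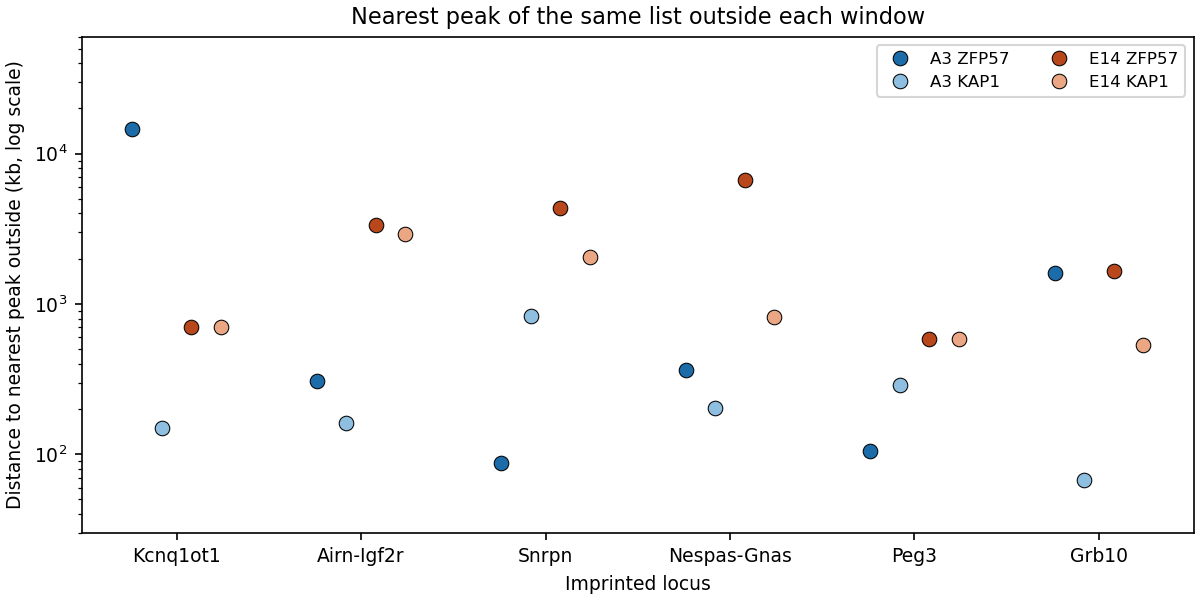
Distance in kb, on a log scale, from each window to the nearest peak of the same list outside it, by locus and list. The E14 lists have no peak within 500 kb of a window, and the A3 distances run from 66.9 kb for KAP1 at Grb10 to 14638 kb for ZFP57 at Kcnq1ot1.

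The control regions methylated on the paternal chromosome, at H19, Meg3 and Rasgrf1, were read in the same way, in 3 windows placed from general knowledge of these loci. Each had peaks of both proteins in E14, and Meg3 and Rasgrf1 also had both in A3, so 2 of 3 windows were called in all lists beside 4 of the 6 maternally methylated ones. At Meg3 all lists had the same peak, chr12:110766301-110766900 in mm9, a width of 600 bp, which none of the maternally methylated regions showed. At Rasgrf1 A3 ZFP57, A3 KAP1 and E14 KAP1 had the peak chr9:89774251-89775000 and E14 ZFP57 ended 150 bp earlier, the same widths as those of A3 ZFP57, E14 KAP1 and E14 ZFP57 at Peg3. H19 resembled Airn-Igf2r and Grb10 in having no A3 peak, but in E14 it held 2 peaks of each protein, at chr7:149765851-149766450 for both proteins and at chr7:149767501-149768100 for ZFP57 and 149767501-149768250 for KAP1. With 6 and 3 windows, no difference between the maternally and paternally methylated regions was tested.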

How the data were processed

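The deposited files are lists of peaks that the authors called, 1 list per library, with 3 columns (chromosome, first and last base) and no other measure: no score, count or p-value, so depth is unknown. Bowtie 0.12.7, bedtools 2.14.3-1, SAMtools 0.1.18, CASAVA 1.8.2 and the build mm9 are listed in the submitters' processing notes, while the caller of the peaks, its threshold and its control are not given in the sources used. Per the files, every position lay on a 150 bp grid, so offsets are known to 75 bp for midpoints and 150 bp for edges. Peaks that touched within a list were merged (1 in A3 ZFP57, 53 in A3 KAP1, 1 in E14 ZFP57, 3 in E14 KAP1).

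Member windows, genes and comparisons were chosen with earlier results of these data known. Members were the peaks overlapping the 6 windows. The separate rule for what the text names took all 8 genes through those windows, every peak overlapping a window, the nearest peak outside, and H19, Meg3 and Rasgrf1 for comparison. The limits of those 3 windows came from general knowledge of mm9. Shares have 95% exact Clopper-Pearson intervals, and peaks are not replicates. Gene coordinates of GRCm38.p6 were not applied to the mm9 peaks, so exon, intron or UTR context is not given. Values were computed with pandas 2.3.3, scipy 1.17.1 and numpy 2.4.6 in Python 3.11.15 and drawn with matplotlib 3.10.9, and the overlap counts were tested on simulated data against bedtools 2.31.1.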

Additional observations from a re-analysis of the deposited data

How the results depend on the processing

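The number of windows with a peak stayed at 4 for both A3 lists and for all lists together, and at 6 for both E14 lists, when the narrowest peaks of each list were left out, when windows were widened by their own width on both sides, when their central 50% alone was used and when touching peaks were not merged. The counts of members shared between proteins or lines were the same with a reciprocal overlap of 50%, within 1 kb and without the narrowest peaks. The 1 kb setting could only add pairs, and the closest unpaired member lay 3.15 kb from a peak of the compared list. Leaving out the narrowest peaks could not change these window and member counts, since no member had the smallest width. Not merging could not change the window counts either, since merging touching peaks leaves the covered bases the same. Widening can only add windows, so the E14 counts of 6 of 6 could not move. In A3 widening added 30 kb on each side of Airn-Igf2r and Grb10, where the nearest peaks outside lay 66.9 kb or further away. Of these settings, only the central 50% could have changed the window counts. The median width outside the windows did not move on autosomes with peaks up to 1500 bp. The median offset between lists was 37.5 bp for midpoints, 0 bp for left edges and 150 bp for right edges, within 1 step of the grid. The share of genome tiles moved with tile size, by construction. With tiles of 25 kb it was 1.39% for A3 ZFP57, 8.69% for A3 KAP1, 0.571% for E14 ZFP57 and 1.25% for E14 KAP1. With tiles of 60 kb it was 3.21%, 18.1%, 1.33% and 2.89% in the same order and 0.0977% for all lists. Without the narrowest peaks, which leaves fewer peaks, it was 0.824%, 9.44%, 0.424% and 1.03%. No paired analysis was possible because each group has 1 library and the labels give no replicate numbers. The lists give no depth, so a missing peak is the absence of a call.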
